A study of Mus musculus with 18 samples.

Results

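Histone H3 trimethylated at lysine 9 (H3K9me3) was mapped against input in wild-type mouse embryonic stem cells. The members are the 105668 stretches of the mm10 genome that fell inside a deposited peak of both wild-type libraries, 2 of the 18 samples in the series. The list of replicate 1 held 116156 peaks and that of replicate 2 held 119982, and a stretch was the overlap of a peak from each. The cells were the E14TG2a line, grown on gelatin in medium with serum, with no knockout and no induced silencing named in their labels, and one antibody against H3K9me3 served both libraries. The study built its silencing system in this line around a tetO array and an eGFP reporter on chromosome 2. It describes the wild-type cells of its Uhrf1 knockout comparison as carrying this reporter, which the labels of these libraries do not name. The line is a single established one, and the methods call the libraries biological replicates. Other libraries of the series, from knockouts and from reporter time points, were not analysed here.

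H3K9me3 is the mark of constitutive heterochromatin. In stem cells SETDB1 places it, brought to DNA by KRAB zinc finger proteins through their partner TRIM28, above all at transposable elements and imprinted regions, whereas the SUV39H enzymes place it at satellite repeats beside centromeres. HP1 proteins bind the mark and help to keep the chromatin compact and its genes silent. Input is chromatin of the same cells that was sheared and sequenced without the antibody, so it shows how many reads a place gives when no mark is selected.

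Strongly marked sequence with few annotated repeats is shown first, because most bases of strong stretches were soft-masked as repeats. Little masking does not by itself show that a sequence has no repeats or other copies. The 5 stretches below had the highest enrichment among those of at least 2 kb with under 10% of their bases soft-masked as repeats. The middle 240 bases of each are given on the forward strand of mm10, with CG pairs, the sites of DNA methylation, in capitals.
Near Serpina1a: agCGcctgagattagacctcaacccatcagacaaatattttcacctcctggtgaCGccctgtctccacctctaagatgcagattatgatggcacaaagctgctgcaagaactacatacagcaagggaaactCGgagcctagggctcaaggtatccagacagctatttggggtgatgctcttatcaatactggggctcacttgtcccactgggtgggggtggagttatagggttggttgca
Near Fthl17b: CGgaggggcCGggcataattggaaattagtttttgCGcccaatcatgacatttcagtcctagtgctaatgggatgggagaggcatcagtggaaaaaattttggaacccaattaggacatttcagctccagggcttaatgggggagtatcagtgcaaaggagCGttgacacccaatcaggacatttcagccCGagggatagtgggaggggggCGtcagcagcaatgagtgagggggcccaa
Il3ra intron: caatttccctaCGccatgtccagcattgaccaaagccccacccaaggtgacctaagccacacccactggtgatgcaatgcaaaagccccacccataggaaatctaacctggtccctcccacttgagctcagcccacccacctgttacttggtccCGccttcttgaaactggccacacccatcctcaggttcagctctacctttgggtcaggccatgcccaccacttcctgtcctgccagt
Near Eif2c5: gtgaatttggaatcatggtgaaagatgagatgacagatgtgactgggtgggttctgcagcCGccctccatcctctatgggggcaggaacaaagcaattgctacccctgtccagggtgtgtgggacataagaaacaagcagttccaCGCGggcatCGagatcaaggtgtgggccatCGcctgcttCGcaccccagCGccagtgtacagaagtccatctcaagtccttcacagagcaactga
Polrmt intron: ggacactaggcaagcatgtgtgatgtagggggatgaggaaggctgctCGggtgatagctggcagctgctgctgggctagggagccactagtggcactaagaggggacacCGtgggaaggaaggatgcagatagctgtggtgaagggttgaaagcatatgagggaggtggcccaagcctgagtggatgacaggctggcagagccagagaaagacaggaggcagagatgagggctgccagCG

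These windows lay at chr12:103829281-103829520, chrX:8964181-8964420, chr14:14351381-14351620, chrX:140798581-140798820 and chr10:79738881-79739120, in that order. The window in Il3ra, which encodes a subunit of the interleukin 3 receptor, and the window in Polrmt, the mitochondrial RNA polymerase, lay in introns. The other windows lay between transcripts, and none of the 5 held an exon base of the deposited annotation. They held from 2 to 7 CG pairs, and their G+C content ran from 50.4% to 58.8%. Soft-masked bases, which the capitals do not mark, numbered 21 in the Serpina1a window, 13 in the Eif2c5 window and 24 in the Polrmt window.

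Read counts show the size of the signal behind these sequences. Each stretch is given the counts and fold of the peak around it in each list, and the limits of that peak can reach beyond the stretch. At the 3.2 kb stretch 22.3 kb from Serpina1a, a serpin gene, replicate 1 had 122 ChIP reads against 17 input reads and replicate 2 had 107 against 17. Scaled for library size this was 8.02-fold over input (95% exact Clopper-Pearson interval 4.81 to 14.2) and 7.32-fold (4.37 to 13.0). The 9.4 kb stretch that holds the start of Il3ra had 1376 and 1400 ChIP reads against 242 and 249 input reads, 6.35-fold (5.54 to 7.31) and 6.54-fold (5.71 to 7.51). The 11.2 kb stretch over exons of Hcn2, a pacemaker channel, and of Polrmt had 2150 and 2139 ChIP reads against 349 and 417 input reads, 6.88-fold (6.14 to 7.73) and 5.97-fold (5.37 to 6.64). The stretches near Fthl17b, a ferritin heavy chain-like gene, and near Eif2c5, both on the X chromosome, were 7.45-fold and 7.17-fold over input and 6.33-fold and 8.14-fold over input. In each of the 5 stretches the intervals of the libraries overlapped. These intervals cover counting error alone, and both libraries were compared with the same input: where both lists gave a peak with the same limits, in 9523 cases, the input count was the same in all 9523.

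The stretches covered 302 Mb, or 11.4% of the 2648 Mb of assembled sequence on chromosomes 1 to 19, X and Y. Replicate 1 alone covered 15.7% and replicate 2 alone covered 15.2%, and the bases in both lists made up 58.5% of the bases in either. Of the peaks, 81.8% in replicate 1 and 80.7% in replicate 2 met a peak of the other list. The 21123 and 23200 peaks without a partner had a median log2 fold of 0.90 and 0.98. The lists held 20875020 and 19543177 ChIP reads in peaks against 10896310 and 10499126 input reads, which is 2.14-fold and 2.17-fold over input after scaling. Peaks were chosen by the authors for an excess over input, so this excess describes the lists and is no test of the mark.

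Most stretches were modest in enrichment and in width. The median log2 fold over input was 1.06 in replicate 1 and 1.05 in replicate 2, with the middle of the distribution from 0.77 to 1.5 and from 0.76 to 1.52. The libraries differed by less than 0.5 on the log2 scale in 85.0% of stretches, and the standard deviation between them was 0.28. Spearman's rho between the libraries was 0.76 over the 105668 stretches, which share one input and are not independent replicates. The median width was 2200 bp, with quartiles of 1200 and 3400 bp, and 1 in 100 stretches was wider than 13400 bp. Stretches of 5 kb and wider were few, yet those of 5 to 10 kb held 24.6% of the covered bases, those of 10 to 20 kb held 9.52% and the 313 stretches of 20 kb and over held 2.77%.

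**Figure D1:**
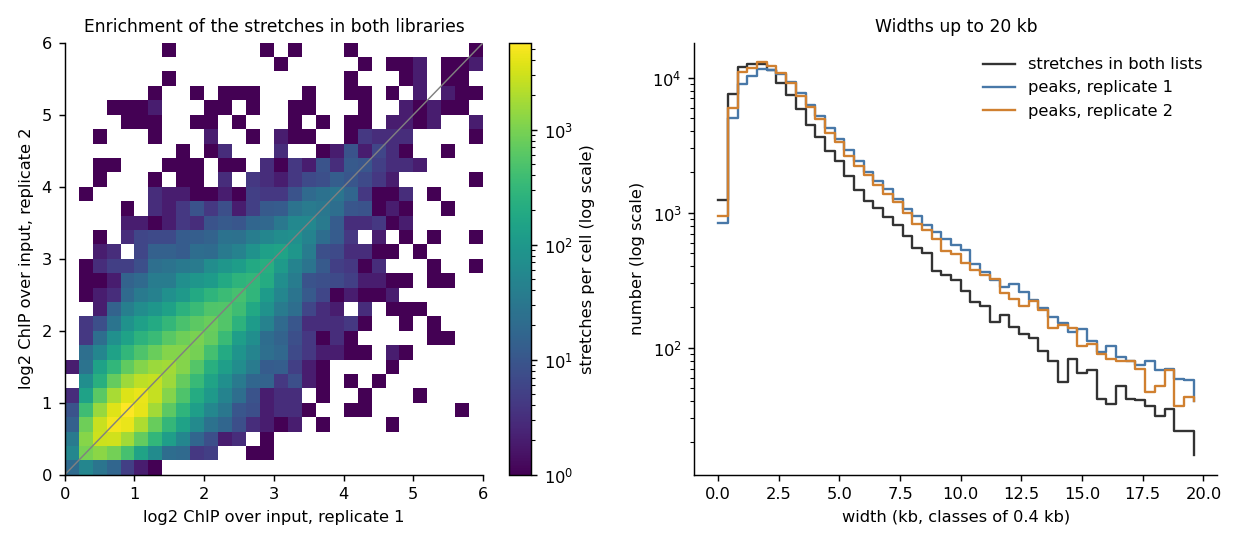
The left panel counts stretches by their log2 ChIP over input in replicate 1 (x axis) and replicate 2 (y axis) in cells of 0.2, with the line of equality in grey and 35 stretches above 6 in either library not drawn. The right panel counts stretches and the peaks of each library by width in kb on a log count axis, and all 3 curves peak below 2200 bp, the median of the stretches.

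The median fold was highest in the shortest stretches. A peak with few reads passes the peak caller only with a high fold. This order can thus not be read by itself as a trait of the mark, and the part of that selection was not tested. Among the 14815 stretches under 1 kb the median log2 fold was 1.54 in replicate 1 and 1.60 in replicate 2, and 22.5% reached a log2 fold of 2 in both libraries. Among the 45901 stretches of 2 to 5 kb the medians were 0.95 and 0.93, and 4.82% reached 2 in both. The medians did not fall further with width, at 1.05 and 1.02 from 10 to 20 kb. The libraries also differed more in the short class, with a standard deviation of 0.46 on the log2 scale against 0.20 in the 2 to 5 kb class and 0.08 at 20 kb and over.

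The content of a stretch changed with its enrichment. Over all stretches 28.5% of bases were soft-masked as repeats in the reference, below the 36.4% of the assembled genome. By mean log2 fold of the libraries, the soft-masked share was 20.9% in the 42169 stretches from 0.5 to 1. It was 45.3% in the 13806 stretches from 1.5 to 2, 65.0% in the 10423 from 2 to 3 and 85.1% in the 1738 of 3 and over. The density of CG pairs moved in the same direction, from 1.17 per 100 bases between 0.5 and 1 to 2.72 at 3 and over, while the genome held 0.83. Placement moved too: 41.9% of stretches from 0.5 to 1 lay outside every transcript, against 80.7% of those at 3 and over. These classes also differ in width and reads. Median width was 800 bp at 3 and over and 2600 bp from 0.5 to 1, with a median of 9 and 97 input reads in replicate 1. Stretches under 1 kb were soft-masked over 51.5%, against 28.4% at 2 to 5 kb. The part of width and read number in the content of the classes was not tested.

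Stretches were richer in G+C than the genome at every level of enrichment. Covered bases were 48.4% G+C, against 41.7% of the genome, and the classes of enrichment ran only from 47.4% to 50.9%. Of windows of 200 bp with under 35% G+C, 1.10% were covered in both lists. The share was 8.58% from 40 to 45% G+C, 30.7% from 50 to 55% and 36.9% from 55 to 60%, then 23.5% at 60% and over. The input moved with G+C as well, though less: in peaks of replicate 1 the median input density was 21.6 reads per kb at 40 to 45% G+C and 25 at 50 to 55%. Median ChIP density over the same classes was 40.6 and 47.9 reads per kb, and the median log2 fold was 1.05 and 1.08. It was higher toward both ends, at 1.23 from 35 to 40% G+C, 1.27 from 55 to 60% and 1.91 at 60% and over, where replicate 2 gave 2.03. The lists give input counts only inside peaks, and the part of read density in which bases were called was not tested.

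**Figure D2:**
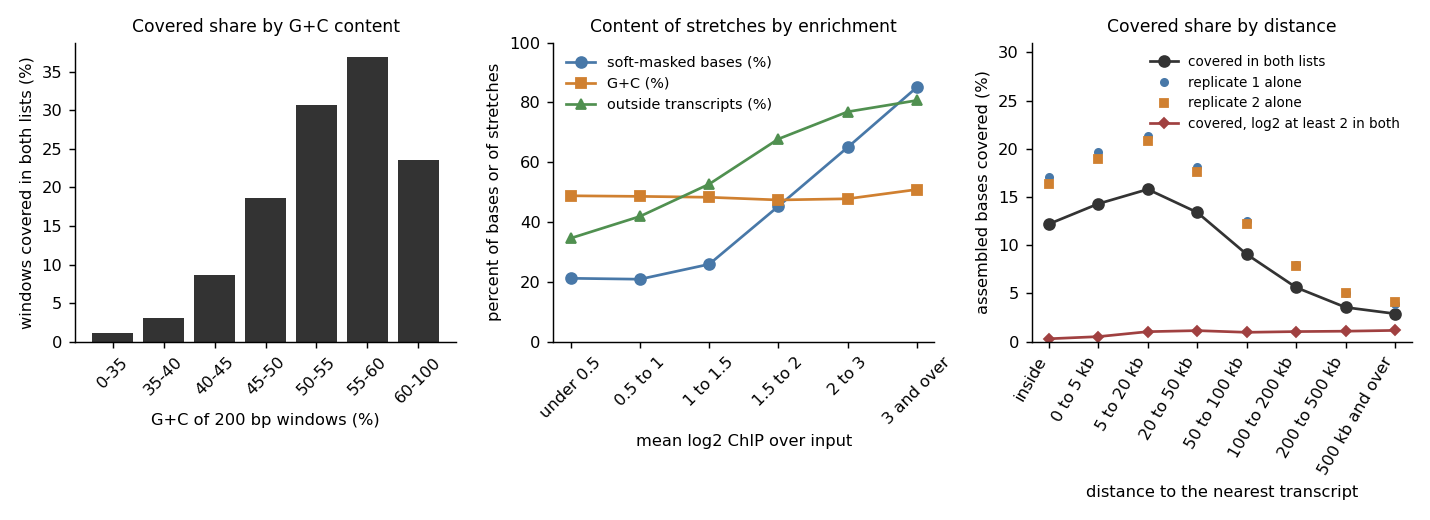
The left panel gives the percent of 200 bp windows covered in both lists by their G+C content. The middle panel gives soft-masked bases, G+C content and the share of stretches outside transcripts by mean log2 fold, where soft-masked bases run from 21.2% to 85.1% and G+C stays near 48%. The right panel gives the percent of assembled bases covered by distance to the nearest transcript, for both lists, each library and stretches with a log2 fold of at least 2 in both, which stay near 1% beyond 5 kb.

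Chromosome 8 had the highest covered share and chromosome Y the lowest. On chromosome 8, 24.9% of assembled bases were covered in both lists, with 30.8% in replicate 1 and 30.4% in replicate 2. The other autosomes ran from 7.33% on chromosome 3 to 16.1% on chromosome 7. The X chromosome had 1.59% and the Y chromosome 0.42%. The input differed in the same order. Median input density in peaks of replicate 1 was 32.2 reads per kb on chromosome 8, from 22.4 to 23.8 on the other autosomes, 11.4 on X and 8.18 on Y, and replicate 2 gave 32.0, 22.5 to 23.8, 11.3 and 8.52. Median ChIP density on chromosome 8 was also above that of the other autosomes, at 49.5 and 47.4 reads per kb against ranges of 40.9 to 45.3 and 39.4 to 44.2. It was higher still on X, at 56.4 and 55 reads per kb, and on Y it was 49.5 and 50.

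The order of the chromosomes turned when the fold was considered. Median log2 fold was 0.79 and 0.77 on chromosome 8, against 0.98 to 1.21 and 0.96 to 1.24 on the other autosomes. It was 2.45 and 2.47 on X and 2.66 and 2.70 on Y. Counting stretches with a log2 fold of at least 1 in both libraries, chromosome 8 was covered over 4.35% of its bases and ranked 12 of 21 chromosomes, within the 3.71% to 7.05% of the other autosomes. Counting those of at least 2, X ranked 1 with 1.04%, and chromosome 8 ranked 20 with 0.41%. Input density thus went with the covered share for chromosomes 8, X and Y set against the other autosomes. Among those autosomes it spanned only 22.4 to 23.8 reads per kb in replicate 1, while cover ran from 7.33% to 16.1%. As for short stretches, a place with few reads enters the lists only with a high fold. The order by fold can thus not be read by itself as a trait of the mark. The part of input density in the covered shares and in the folds was not tested.

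**Figure D3:**
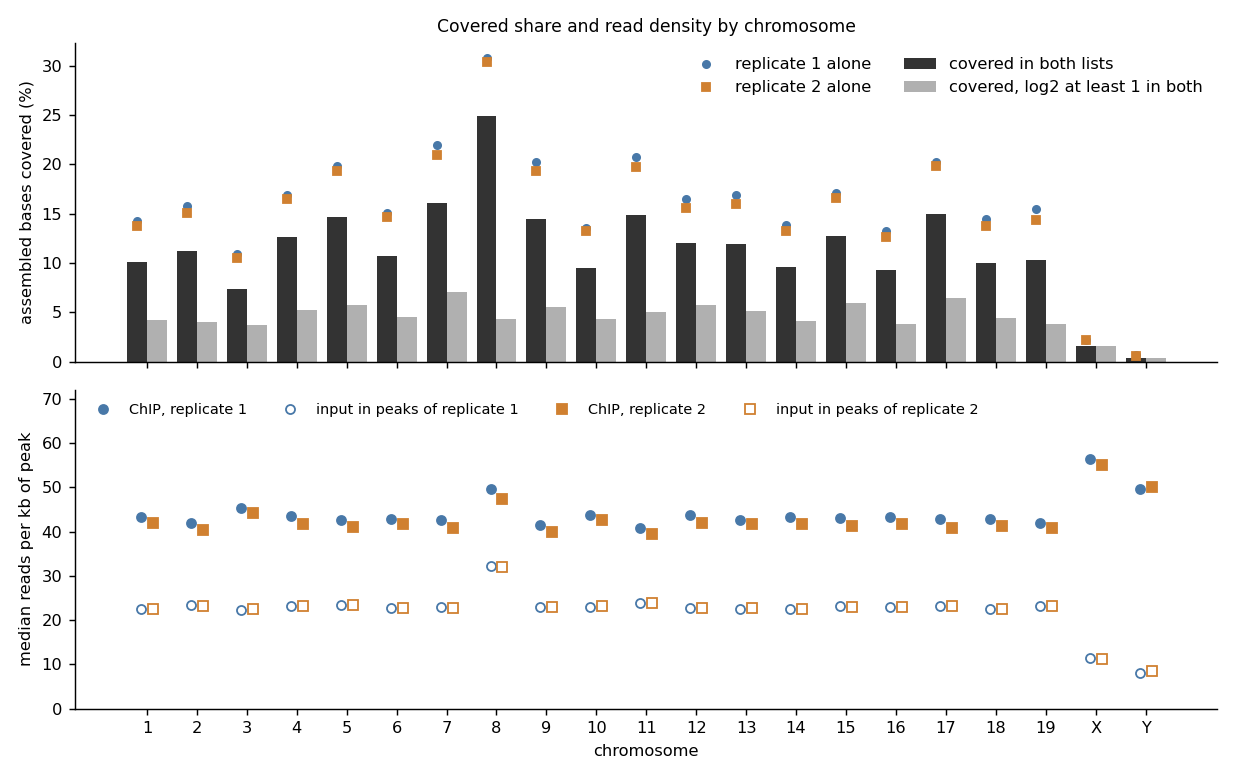
The upper panel gives the percent of assembled bases covered on each chromosome in both lists (dark bars), in each library (points) and by stretches with a log2 fold of at least 1 in both (grey bars). The lower panel gives median ChIP (filled) and input (open) reads per kb of peak, where chromosome 8 stands above and X and Y below the other chromosomes in input.

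Within chromosomes the cover was uneven on the scale of a megabase. Over 2660 windows of 1 Mb the median covered share was 6.97%, with quartiles of 2.80% and 16.4%. In 47 windows at least 50% of bases were covered, and in 57 none were. The libraries ranked the windows alike, with a Spearman's rho of 0.99 as a description of 2660 windows that share one input, and rho between covered share and G+C content was 0.83. The fullest window was chr8:118000001-119000000 with 82.4%, which holds part of a single gene, Cdh13. Of the 5 fullest windows 4 lay on chromosome 8, and the other, at chr4:153000001-154000000 with 69.1%, holds Ajap1, a gene of a cell junction protein.

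Relative to transcripts of the deposited annotation, 52.2% of stretches lay wholly outside and 47.8% met one. Bases between transcripts made up 50.2% of the covered bases and 53.6% of the assembled bases, and introns 40.9% and 39.9%. Coding exons held 2.15% of the covered bases against 1.15% of the assembled bases, so 21.3% of coding exon sequence was covered, with 27.1% in replicate 1 and 25.9% in replicate 2. Promoters, taken as 1 kb on each side of a transcript start, were covered over 13.5% of their bases. Strong stretches, those of log2 fold 2 or more in both libraries, were placed otherwise: 79.1% of their 18 Mb lay between transcripts and 0.61% in coding exons. Weak stretches, under 1 in both, had 40.9% of their 123 Mb between transcripts and 2.51% in coding exons.

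Distance from transcripts told the same classes apart. Covered share was 12.2% inside transcripts, rose to 15.8% at 5 to 20 kb from the nearest one and then fell with every class to 2.90% at 500 kb and over. Both libraries gave that order, with 17.1% and 16.3% inside, 21.3% and 20.8% at 5 to 20 kb, and 3.90% and 4.11% at the far end. G+C content fell along the same classes, from 43.4% within 5 kb to 36.9% at 500 kb and over. Strong stretches did not fall with distance: they covered 0.30% of bases inside transcripts, 1.04% at 5 to 20 kb and 1.17% at 500 kb and over. Of stretches outside transcripts the median distance was 23.7 kb, and 5.56% of all stretches held a transcript start.

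Around the starts of coding genes the cover dipped. Over 21877 coding genes, 8.15% of bases were covered in the last 1 kb before the start, against 13.7% at 19 to 20 kb before it, and 11.5% against 18.7% in replicate 1 and 11.1% against 18.1% in replicate 2. In the last 20 kb of the gene the share was highest at 1 to 2 kb before the end, at 15.2%. Zinc finger genes, whose KRAB members encode the proteins that bring the mark to DNA, had a deeper dip: 3.07% was covered in the first 1 kb after the start of 398 genes, with 3.64% and 3.83% in the libraries. Among genes with at least 3 coding exons, the last coding exon of zinc finger genes, which usually encodes the zinc finger array, was covered over 18.6% of its bases and the middle exons over 14.8%. The same values for the other coding genes were 23.6% and 19.8%. By bases the first coding exon went the other way, with 23.8% in zinc finger genes against 18.8% in the others. Counted by exon it did not: 5.39% of these exons in zinc finger genes were at least 50% covered, against 11.8% in the others. Their median length was 39.5 bp in zinc finger genes and 108 bp in the others. By the same count the last coding exons were alike, at 17.7% against 17.9%, while the middle exons stood at 8.97% against 17.6%. Over whole genes, 11.4% of zinc finger gene bases were covered, beside 11.7% for all coding genes.

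**Figure D4:**
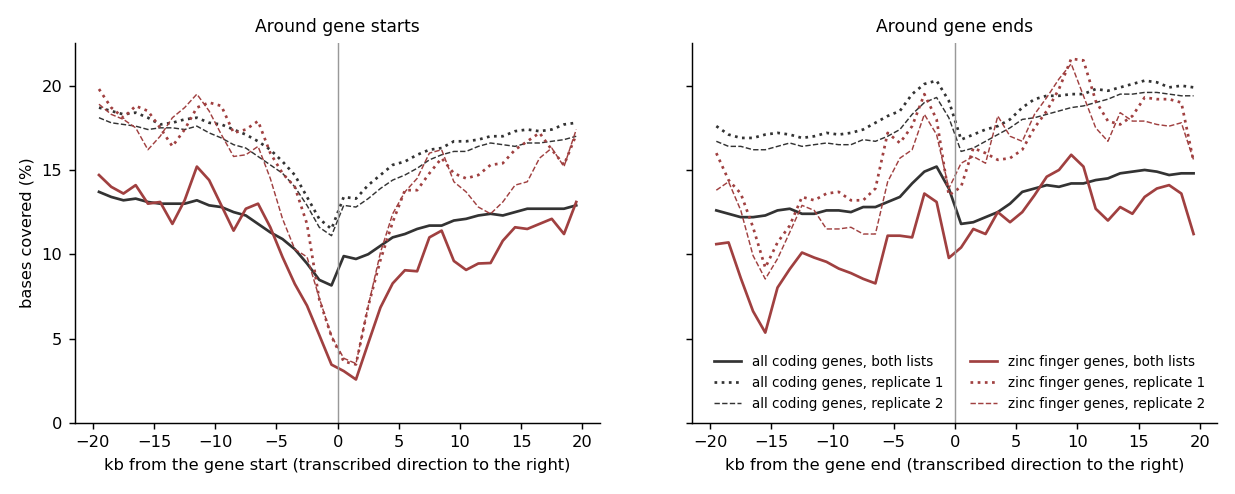
Percent of bases covered in steps of 1 kb from 20 kb before to 20 kb after the start (left) and end (right) of genes, for all coding genes (dark) and zinc finger genes (red), in both lists (solid) and each library (broken). The cover falls to 8.15% before the start of coding genes and to 2.57% at 1 to 2 kb after the start of zinc finger genes.

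Of 21878 coding genes, 9789 had a covered base, which is 44.7% of them. At least 50% of bases were covered in 2230 coding genes, which is 10.2% of them, and in 2218 of 13979 noncoding genes, which is 15.9%. Replicate 1 alone gave 3292 such coding genes and replicate 2 alone gave 3123. Short genes met that threshold more often: 16.3% of the 5055 coding genes under 5 kb did, against 2.64% of the 227 genes of 500 kb and over. Coding genes with at least 50% covered were 49.3% G+C, and all coding genes 43.0%. On chromosome 8, 216 of 1035 coding genes (20.9%) met the threshold, and on X, 9 of 971 (0.93%). Counting only stretches of log2 fold 1 or more in both libraries, 637 coding genes met it (2.91%), 10 of them on chromosome 8 and 9 on X.

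The 10 coding genes with the most covered bases were long, from 457 kb (Cdh4) to 1468 kb (Rbms3). Cdh13, which encodes T-cadherin, a cadherin without a membrane-spanning part, led with 1009 kb covered of 1185 kb, or 85.2%, and 89.6% in each library. Its 109 stretches had a median log2 fold of 0.98 in replicate 1 and 0.89 in replicate 2. Wwox, an oxidoreductase gene over a fragile site, followed with 644 kb of 913 kb (70.5%), and Dlgap2, a scaffold of synapses, with 536 kb of 754 kb (71.1%). These 3 lie on chromosome 8, where input density was high. Counting stretches of log2 fold 1 or more, Cdh13 was covered over 32.9%, Wwox over 11.6% and Dlgap2 over 8.33%. By the same count Rbms3 came to 15.3%, Asic2 to 18.9%, Camta1 to 11.4% and Csmd2 to 40.4%. Ranked by bases in such stretches, Cdh13 stayed first with 390 kb, while Wwox, Dlgap2, Camta1 and Cdh4 left the first 10 and Shank2, Fam19a5, Fstl4 and Ephb1 entered it, names chosen after the values were seen.

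The next genes lay elsewhere. Asic2, a proton-gated sodium channel on chromosome 11, had 486 kb covered (44.6%), and Rbms3, an RNA-binding protein on chromosome 9, had 435 kb (29.7%). Camta1, a calmodulin-binding transcription activator, had 411 kb (51.3%) and Csmd2, a large membrane protein gene on chromosome 4, had 388 kb (67%). Sdk1, an adhesion molecule of synapses, had 348 kb (35.8%). Cacna1c, the pore of an L-type calcium channel, had 342 kb (56.0%), and Cdh4, or R-cadherin, had 313 kb (68.4%). Coding bases were covered at a higher share than the whole gene in 9 of the 10, among them 92.8% in Cdh13, 92.3% in Dlgap2 and 87.7% in Cacna1c. Wwox had 61.5% of its coding bases against 70.5% of the gene. The same order held over all coding genes, with 21.3% of coding exon bases covered against 11.7% of gene bases, so it is not particular to these 10. Each library alone covers at least as much as the overlap by construction, and the shares in single libraries ran from 39.3% in Rbms3 to 89.6% in Cdh13.

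Of 13889 coding genes of at least 10 kb, 20 were covered from end to end in both lists, and the 10 longest are named. Mroh2a, of 35.3 kb, and its neighbour Hjurp, a chaperone of centromere histone CENP-A, of 18.8 kb, lay on chromosome 1 within the same stretch of 62.0 kb with a log2 fold of 1.17 and 1.14. The peaks around it held 4290 and 4108 input reads, more than the 2479 and 2475 of the longest stretch of all, of 99.6 kb. Muc5ac, a secreted gel-forming mucin of 30.3 kb, lay in a stretch of 43.2 kb with 1.45 and 1.46. Itih4 and Agt (angiotensinogen) are secreted by the liver, Klhl40 is a muscle gene, Ecel1 is an endopeptidase of neurons and Gpr26 a brain receptor. Chst13, a sulfotransferase, had the highest folds of the 10, at 1.90 and 1.80, and Agt on chromosome 8 the lowest, at 0.78 and 0.70. Plpp7 completed the 10, with 1.47 and 1.57. For Klhl40 and Agt, no base lay in stretches of log2 fold 1 or more in both libraries.

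Among noncoding genes Zmiz1os1 had the most covered bases, 132 kb of 204 kb (64.6%), followed by LOC105245978 with 125 kb (75.9%) and Gm6626 with 114 kb (72.5%). The 2610035D17Rik gene had 105 kb (66.7%) and Gm31432 had 94.8 kb (60.6%). Gm6626, on chromosome 12, stood apart in strength. Its 19 stretches had median log2 folds of 1.83 and 1.54, and 27.5% of its bases lay in stretches of log2 fold 2 or more in both libraries, whereas the other noncoding genes named had 0%.

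The 5 families with the highest cover encode proteins of skin, glands and placenta, but not every family of such proteins was covered so. The prolactins, which include placental hormones, had 2.53% of bases covered in both lists. The major urinary proteins, which are secreted, had 11.4%, with 0 genes covered over at least 50%. Each of the 48 families of at least 10 genes was defined by its symbols. In the kallikreins, secreted serine proteases that lie in a cluster on chromosome 7 but for 1 gene on chromosome 8, 61.4% of bases were covered in both lists, 71.6% in replicate 1, and 22 of 28 genes were covered over at least 50%. Klk1b21 had 65.0 kb covered of its 102 kb and Klk1b16 had 12.6 kb of 19.4 kb. In the keratins, the filament proteins of epithelia, 61.4% of bases were covered and 38 of 54 genes passed 50%, with 25.2 kb in Krt78 and 17.9 kb in Krt80. The secretoglobins, small secreted proteins of glands, had 55% of bases covered and 19 of 35 genes past 50%, with 13.1 kb in Scgb2b23-ps and 6.04 kb in Scgb1b30. The keratin-associated genes of hair had 51.7% and 27 of 54 genes, and Krtap16-1 and Krtap5-3 were covered from end to end. The Psg and Ceacam genes, which include the pregnancy-specific glycoproteins of the placenta, had 42.3% and 14 of 30 genes, with 19.8 kb in Psg16 and 11.4 kb in Ceacam3. Over all coding genes 10.2% passed 50%, but these families are not like the average coding gene in length and base composition. Median gene length was 0.833 kb in the keratin-associated genes, 1.97 kb in the secretoglobins and 4.6 kb in the kallikreins, and 16.3% of coding genes under 5 kb passed 50%. The 5 families were from 44.6% to 50.1% G+C against 43.0% for coding genes, and the part of length and G+C in their cover was not tested. Members of such clusters lie side by side, so one stretch can cover several of them and the genes are not independent.

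The strength of the cover differed among these families. By stretches of log2 fold 1 or more in both libraries, 47.0% of secretoglobin bases were covered, 38.9% of keratin bases, 36.1% of keratin-associated bases, 30.7% of kallikrein bases and 17.9% of Psg and Ceacam bases, against 3.49% over all coding genes. The next families in order, the Wnt genes (37.9%) and the major histocompatibility genes (37.5%), came to 10.3% and 7.62% by that count. The cadherins had 28.8% covered and 16% without their 8 genes on chromosome 8. Near-identical members of a family can share reads, and with 1 alignment reported per read the values of single members are uncertain.

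**Figure D5:**
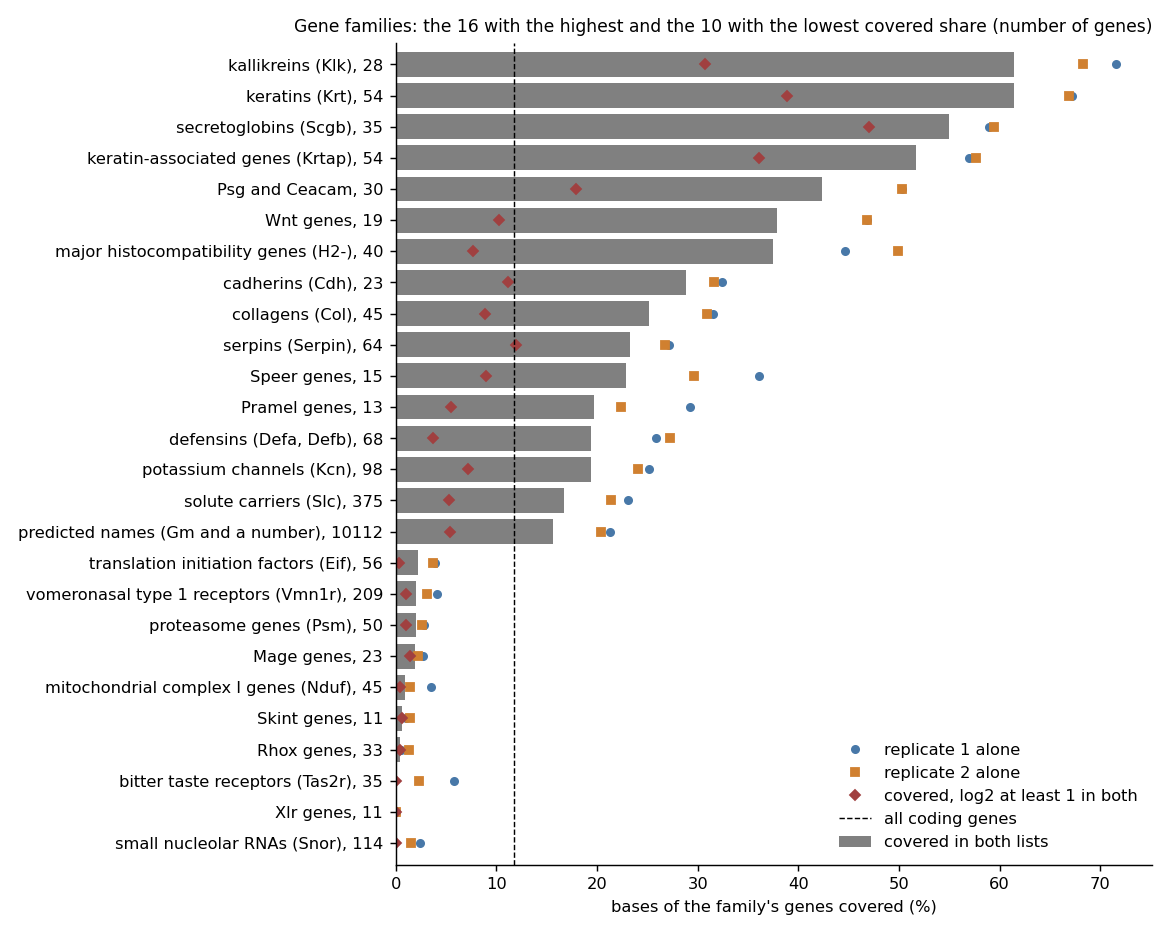
Bars give the percent of bases covered in both lists for the 16 families with the highest and the 10 with the lowest values, with the number of genes after each name. Circles and squares give each library, diamonds the share covered by stretches of log2 fold 1 or more in both, and the dashed line the 11.7% of all coding genes, with kallikreins and keratins at the top at 61.4%.

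At the other end, 3 families had no base covered in both lists: the 114 small nucleolar RNAs, the 35 bitter taste receptors and the 11 Xlr genes. The Xlr genes all lie on X, as do the Rhox homeobox genes, of which 0.39% of bases were covered, and this chromosome as a whole had 1.59%. Within Rhox the cover came from a single stretch at Rhox13, with log2 folds of 2.16 and 3.01, and Rhox5 had none. The bitter taste receptors had 5.83% of their bases covered in replicate 1 and 2.3% in replicate 2, at places that did not overlap. The Skint genes had 0.64%, with 4.80 kb of 522 kb in Skint5 and 2.80 kb of 64.0 kb in Skint10. They lie in sequence of 36.8% G+C. The small nucleolar RNAs named by the rule, Snord17 and Snora73a, and the receptors Tas2r102 and Tas2r107, are short, at 0.221, 0.205, 1.04 and 1.03 kb, and Xlr and Xlr5b, of 20.6 and 11.5 kb, were bare in each library.

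Of 12 genes known for their role in stem cells, among them the transcription factors Pou5f1, Nanog and Sox2, 9 had no covered base and none reached 50%. The exceptions were Esrrb at 36.4%, Dppa3 at 20.2% and Tfcp2l1 at 7.69%, where replicate 1 alone gave 54.5% of Tfcp2l1 and replicate 2 alone gave 7.69%. For Dppa3 they gave 20.2% and 46.2%. Counting stretches of log2 fold 1 or more in both libraries, Esrrb came to 6.85%, and Dppa3 and Tfcp2l1 came to 0%. By bases, 22.6% of the stem cell list was covered, against 11.7% of coding gene bases, and Esrrb is by far the longest of the 12 genes. Of 10 genes that every cell uses, 1 had a covered base, B2m, a subunit of MHC class I, at 40.8%. Of 25 genes linked to heterochromatin, among them writers, readers and erasers of its marks, 3 had covered bases. They were the DNA methyltransferase gene Dnmt3a with 23.0%, its cofactor gene Dnmt3l with 1.47% and Atf7ip, which encodes the partner of SETDB1, with 0.65%. The libraries alone gave 35.8% and 26.1% of Dnmt3a, 14.6% and 1.47% of Dnmt3l, and 0.863% and 1.73% of Atf7ip. The stretch at B2m had log2 folds of only 0.288 and 0.803. By stretches of log2 fold 1 or more in both libraries, B2m and Dnmt3l came to 0% and Dnmt3a to 2.19%, while Atf7ip stayed at 0.645%. Over all coding genes 44.7% had a covered base, as given above. Setdb1, Trim28, Suv39h1 and the HP1 genes Cbx1, Cbx3 and Cbx5 had no base covered in either library. ChIP against this mark cannot show by itself which cell type was sampled, and expression was not measured in these files.

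The longest stretch ran over 99.6 kb at chr4:140257801-140357400, across the noncoding genes Gm33895 and Gm34074, with 6248 and 5723 ChIP reads against 2479 and 2475 input reads. That is 2.82-fold over input (2.69 to 2.95) and 2.69-fold (2.57 to 2.82). Another long stretch on chromosome 4, chr4:152782001-152847600, lay 3.94 kb from the nearest transcript, at 3.05-fold and 3.35-fold. A pair of stretches of 65.6 and 65.8 kb lay close together on chromosome 17. The first, chr17:27286001-27351600, was 4.25-fold (4.08 to 4.43) and 4.22-fold (4.05 to 4.40) over input, and the second, chr17:27354401-27420200, was 2.98-fold and 3.05-fold. Both hold exons of microRNA and predicted genes. Their input density in replicate 1 was 43.1 and 42.3 reads per kb, above the median of 23.3 over peaks of that library. The intervals of the libraries overlapped in the first, but the first and the second were apart in both libraries.

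The second longest stretch held the most input reads. At chr9:3000001-3077400, the first assembled bases of chromosome 9, 506011 and 502046 ChIP reads stood against 185763 and 185756 input reads. It was 3.04-fold (3.03 to 3.06) and 3.14-fold (3.13 to 3.16) over input. Its input density was 2394 reads per kb, where the median over peaks of replicate 1 was 23.3. In replicate 1, 81 peaks had over 10 times the median input density, and in replicate 2, 78 did. Together they spanned 0.253 and 0.240 Mb and held 6.83% and 7.44% of all ChIP reads in peaks. The stretch chr14:19415601-19419800, with 153621 input reads in each list, was 1.5-fold and 1.66-fold over input, and a stretch in an intron of Chl1, chr6:103648001-103649400, was 1.83-fold and 1.49-fold. Levels at these places were not compared with those elsewhere.

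The strongest stretches of at least 2 kb were the reverse, with few input reads. At chr13:46380001-46382200, 36.0 kb from Rbm24, 113 and 129 ChIP reads stood against 5 input reads in each, 25.2-fold over input (10.5 to 79.2) and 30.0-fold (12.5 to 94). At chr12:119591001-119593000, 124 kb from Macc1, the counts were 115 and 126 against 6 each, 21.4-fold and 24.4-fold. The next were chrX:34275001-34279400 at 17.0-fold and 19.5-fold, chr5:57651201-57653200 in an intron of 4932441J04Rik at 15.9-fold and 17.2-fold, and chrY:4796201-4804200 at 15.6-fold and 16.7-fold. In 3 of the 5 every base was soft-masked, the X stretch was masked over 98.4% and the Y stretch over 23.4%. Their CG density ran from 2.20 to 3.84 per 100 bases, above the genome's 0.83. Input density at these places was 2.27 to 5.00 reads per kb against the median of 23.3. From 5 to 35 input reads stood behind each fold, and the intervals were widest where the reads were fewest.

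The 5 stretches farthest from any transcript lay within one gap on chromosome 3. The farthest, chr3:43539001-43542000, was 1736 kb from the nearest transcript, with 203 and 193 ChIP reads against 46 and 32 input reads, 4.93-fold (3.56 to 6.94) and 7.02-fold (4.81 to 10.5). It was soft-masked over 96.0%. The others, 1573 to 1712 kb away, were 0.4 to 2.2 kb wide. One of them, chr3:43515601-43516000, lay in a peak of 400 bp with 40 ChIP reads against 1 input read in replicate 1 and in a wider one of 600 bp with 46 against 8 in replicate 2. The folds of 44.7 (7.57 to 1808) and 6.69 (3.13 to 16.4) belong to peaks with different limits, and their intervals overlapped.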

How the data were processed

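Wild-type E14TG2a chromatin was immunoprecipitated for H3K9me3 and read as single-end reads. The authors aligned reads to mm10 with Bowtie2 2.3.4.3 in local mode at default settings, which report 1 alignment a read, drew each library down to a common depth, and called peaks per library with epic2, a version of SICER (0.0.51), against wild-type input, with duplicates kept. Each deposited list gives ChIP and input read counts, a p-value and false discovery rate, a log2 fold over input scaled for library size, and a score that is 100 times that log2 fold. The scale is the ChIP over input library size, 0.895 and 0.86 for the libraries, and where a peak had no input read (108 and 116 peaks) the deposited log2 fold used 0.25 reads. The lists hold reads in peaks only. The knockout and reporter lists were not used here.

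Limits of peaks fell on a grid of 200 bp. Stretches were peak overlaps (Python 3.11.15, numpy 2.4.6, pandas 2.3.3; the same limits came from bedtools 2.31.1), and scripts were tested on simulated data. The deposited annotation holds the reporter on chromosome 2: 2220 of 2490 genes compared lay 2762 bp further along than in mm10, so they were moved back, while the peaks fitted plain mm10. A gene is the union of its transcripts, and overlapping genes share bases. The named items were the 10 coding genes with the most covered bases, the 10 of at least 10 kb with the highest covered share (ties by length), 5 noncoding genes, 5 stretches each by width, fold and distance, the 5 families at each end with 2 members each, and list genes. Sequences were taken outside chromosome 18. The members and lists were chosen with earlier results of these data known. Symbols follow the annotation, and 1 of 26 heterochromatin genes was not found there. No test was run, since there is 1 group and the peaks were chosen for excess over input. Alternatives used another false discovery rate, fold, peak number, width, chromosome set, annotation or single libraries.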

Additional observations from a re-analysis of the deposited data

How the results depend on the processing

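The descriptions rest on 2 libraries with one input, and the threshold of the peak caller sets most of them. With peaks at a false discovery rate under 1e-10 there were 55524 stretches over 7.23% of assembled bases, with a median width of 2400 bp and a median log2 fold of 1.41, 57.9% outside transcripts and 1264 coding genes covered over at least 50%. With peaks of log2 fold at least 1 these were 46154, 4.54%, 1800 bp, 1.58, 64.4% and 637. With bases in either list the covered share was 19.5%, the median width 2800 bp and the gene count 4245. With the same number of peaks per list the median log2 fold was 1.07. With a minimum of 600 bp it was 1.05, as on the autosomes only, where the covered share was 12.5%. With curated transcripts only, 63.2% of stretches lay outside transcripts. Single libraries gave from 116156 to 119982 regions, 15.2% to 15.7% of bases, median widths of 2400 to 2600 bp, median log2 folds of 1.05 to 1.06, 51.9% to 52.7% outside transcripts and 3123 to 3292 genes. The cause of these shifts is the construction of each alternative, which keeps fewer or more peaks or transcripts. Leaving out chromosome 2 kept the share outside transcripts within the spread between libraries and the gene count within 1.5 times.

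No paired analysis was possible because no groups were compared. Depth limits narrow peaks most, where few input reads stand behind a fold. Of 142 named gene and family shares, 68 moved by more than the spread between libraries when peaks of log2 fold under 1 were left out, as did 71 without replicate 1 and 75 without replicate 2. The direction of these moves is set by construction: a higher fold cannot add cover, and a single list cannot cover less than the overlap.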

Other observations

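At the place on chromosome 2 where the deposited annotation holds the reporter, both wild-type lists had a peak, a place looked up after the values were seen. The stretch chr2:13571201-13575400 meets the start of Vim, which encodes vimentin, and had 385 and 398 ChIP reads against 115 and 122 input reads, 3.74-fold (95% exact interval 3.03 to 4.65) and 3.79-fold (3.09 to 4.69) over input. Its G+C content was 50.3%, and 18.3% of it was soft-masked. The labels of these libraries do not name the reporter, while the study describes the wild-type cells of its Uhrf1 knockout comparison as carrying it. The study states that the insertion site lacked H3K9me3 in stem cells. It reports that a domain of the mark formed there once a repressor was recruited to the tetO array. Whether the peak is native H3K9me3 at Vim or arose at the reporter cannot be told from these lists, and its origin was not tested.

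Further along the family ranking, collagens had 25.2% of bases covered and 18 of 45 genes past 50%, serpins 23.3% and 25 of 64, and potassium channels 19.4% and 25 of 98. Over all coding genes 10.2% passed 50% and 44.7% had a covered base. Olfactory receptors, the largest receptor family, had 8.97%, with 166 of 1124 genes past 50% and 212 with any covered base. In the vomeronasal type 2 receptors 56 of 125 genes had a covered base and none reached 50%, with 4.52% of bases covered. Hox genes, at 50.6% G+C, had 2.98% of bases covered in both lists, with 7.3% in replicate 1 and 7.43% in replicate 2, and the replication-dependent histone genes, at 47.8% G+C, had 5.81%.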
